A study of Mus musculus with 3 samples.

Results

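Id2, Id3, Id4, Sox2, Sox9, Hes1 and Hes5 are 7 regulators of stem-cell quiescence and self-renewal, chosen by name out of 16178 genes in the deposited expression table. They were followed across 149 single cells of the mouse subventricular zone, the stem-cell niche along the lateral ventricles of the brain. The cells were sequenced with SORT-seq, which sorts a cell into each well of a plate and tags every captured transcript with a molecular identifier, so that copies made by PCR are counted once. The series asked how autofluorescence, the light a cell gives off without any stain, relates to how activated a neural stem cell is.

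The 3 samples are 3 plates that form 1 group. All cells came from male C57BL/6J mice supplied by Envigo, 8 per experiment, and no label tells the animals of an experiment apart. No genotype or treatment differed, and the labels give no age. A magnetic column selected cells that display GLAST, the Slc1a3 product and a glutamate transporter of astrocytes and stem cells, and myelin was depleted in 2 of the 3 experiments, which the labels do not name. Plates 1, 2 and 3 held 43, 45 and 61 cells with 297573, 413728 and 478504 estimated transcripts.

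The labels call the cells neural stem cells, but most of the 5 clusters the authors deposited carried other markers. Clusters 0 and 2 were oligodendrocyte-like. On each plate the summed level of 6 oligodendrocyte markers such as Mbp and Mog reached 63024 to 71250 CPM there (counted transcripts per 1000000 of the cluster's transcripts on that plate), against 390 to 1884 in cluster 3. Cluster 1 was microglia-like, with 6 markers such as C1qa and Csf1r at 26007 to 27147. Cluster 3 was like quiescent stem cells or astrocytes, with 13 markers such as Slc1a2 and Gja1 at 48137 to 49825, against 3318 in cluster 4. Cluster 4 was like activated stem cells or progenitors, with 9 markers such as Mki67 and Top2a at 12670, against 134 to 451 in cluster 3. It also carried 4 of 7 neuroblast markers, whose list summed to 1219, against 0 to 38.2 in cluster 3. The markers of cluster 3 do not separate quiescent stem cells from astrocytes. Cluster 3 held 25, 1 and 4 cells on plates 1, 2 and 3, and cluster 4 held 5, 1 and 0. Clusters 0 and 2 together held 4, 25 and 48, and cluster 1 held 9, 18 and 9. Plate and cluster therefore go together, and levels were compared within a plate.

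Id proteins are helix-loop-helix factors without a DNA-binding domain. They pair with E proteins and keep activators of differentiation from binding DNA, and their genes are classic targets of BMP signalling through SMADs. Hes1 and Hes5 are DNA-binding repressors that Notch switches on through RBPJ, and they hold proneural genes down. Sox2 and Sox9 are HMG-box factors of neural stem cells and astrocytes, and Sox2 stays on when stem cells begin to divide.

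On GRCm38 in the GENCODE annotation, Id2 lies on the minus strand at chr12:25093799-25097140. The other genes lie on the plus strand, with Id3 at chr4:136143497-136145755, Id4 at chr13:48261228-48266026 and Sox2 at chr3:34650405-34652461. Sox9 lies at chr11:112782224-112787760, Hes1 at chr16:30064384-30067796 and Hes5 at chr4:154960923-154962371. Values are for whole genes, and transcripts were not told apart.

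Promoters are shown for Id4 and Hes5, the pair of members whose levels ran most closely together across clusters and plates. Each run is the 250 bases before the RefSeq start on GRCm38.p6, plus strand, 5′ to 3′. Capitals mark TGGGAA, the core of RBPJ sites, and GGCGCC, a GC palindrome bound by SMADs. Both strands were searched, so that TTCCCA is TGGGAA read on the other strand. No capital belongs to both motifs.

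Hes5 at chr4:154960673-154960922: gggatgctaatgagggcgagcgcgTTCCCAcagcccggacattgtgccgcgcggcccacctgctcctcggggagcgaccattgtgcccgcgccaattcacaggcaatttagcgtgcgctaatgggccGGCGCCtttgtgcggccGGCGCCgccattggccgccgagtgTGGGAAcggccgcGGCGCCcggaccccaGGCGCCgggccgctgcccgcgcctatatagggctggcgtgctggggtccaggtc

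Id4 at chr13:48260866-48261115: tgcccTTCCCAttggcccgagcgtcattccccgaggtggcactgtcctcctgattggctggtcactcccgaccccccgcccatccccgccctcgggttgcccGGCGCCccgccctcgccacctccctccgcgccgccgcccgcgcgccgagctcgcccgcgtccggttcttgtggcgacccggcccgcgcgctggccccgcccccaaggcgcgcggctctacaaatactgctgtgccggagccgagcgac

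The Hes5 window held 2 TGGGAA matches, starting 82 and 226 bases before the start, and 4 GGCGCC matches. Among 32851 RefSeq promoter windows of this length, 21.6% held TGGGAA at least 1 time and 2.77% at least 2 times. The Id4 window held 1 TGGGAA and 1 GGCGCC, the latter present in 9.59% of windows. The N-box CACNAG, the preferred site of Hes repressors, was in the Id4 window 1 time and in 36.7% of all windows. Windows were available for 5 members. The Id2 window held 1 GGCGCC, and those of Id3 and Sox2 held none of the 3 motifs. The Id2 and Id3 windows overlap annotated exons and untranslated regions of Id2 and Id3 themselves in GENCODE, so they are not only upstream sequence. The Hes5 window overlaps an exon of another gene, Gm20421. The Id4 window ends at 48261115, before the GENCODE gene start at 48261228. The bases after that window match the start of no GENCODE transcript of Id4. These matches describe the letters only.

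Cluster 3 was where most of the regulators were found. It held 13.3% of all molecular identifiers in the data, but 86.8% of those of Id2, 66.3% of Id3, 78.1% of Id4, 64.6% of Sox9, 55.6% of Hes1 and 87.5% of Hes5. Sox2 was divided, with 44.7% of its 246 identifiers in cluster 3 and 85.0% in clusters 3 and 4 together. A median of 5 of the 7 genes was detected per cell of cluster 3, with a range of 1 to 7, and 26 of 30 cells had 4 or more. The 6 cells of cluster 4 had a median of 3, with a range of 2 to 4. The median was 1 in clusters 0 and 2 and 1 in cluster 1. Cells of cluster 4 were deeper, with a median of 17377 transcripts against 4192 in cluster 3, 9012 in clusters 0 and 2 and 3455 in cluster 1, so fewer members per cell in cluster 4 did not come with fewer transcripts.

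Because the authors drew the clusters from the same expression values, levels between clusters are given as a description without a test. A level is the gene's CPM in the summed transcripts of a cluster on a plate, for sums of at least 3 cells. The values are set side by side within a gene only, since no length correction was made. A fall in a sum can come from fewer cells that carry a transcript or from fewer transcripts per cell, so the counts of cells are given too. Intervals are exact at 95% and cover counting error only. The plates had too few cells of both stem-like clusters for spread between plates to be known: cluster 3 had usable sums on plates 1 and 3 and cluster 4 on plate 1.

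**Figure D1:**
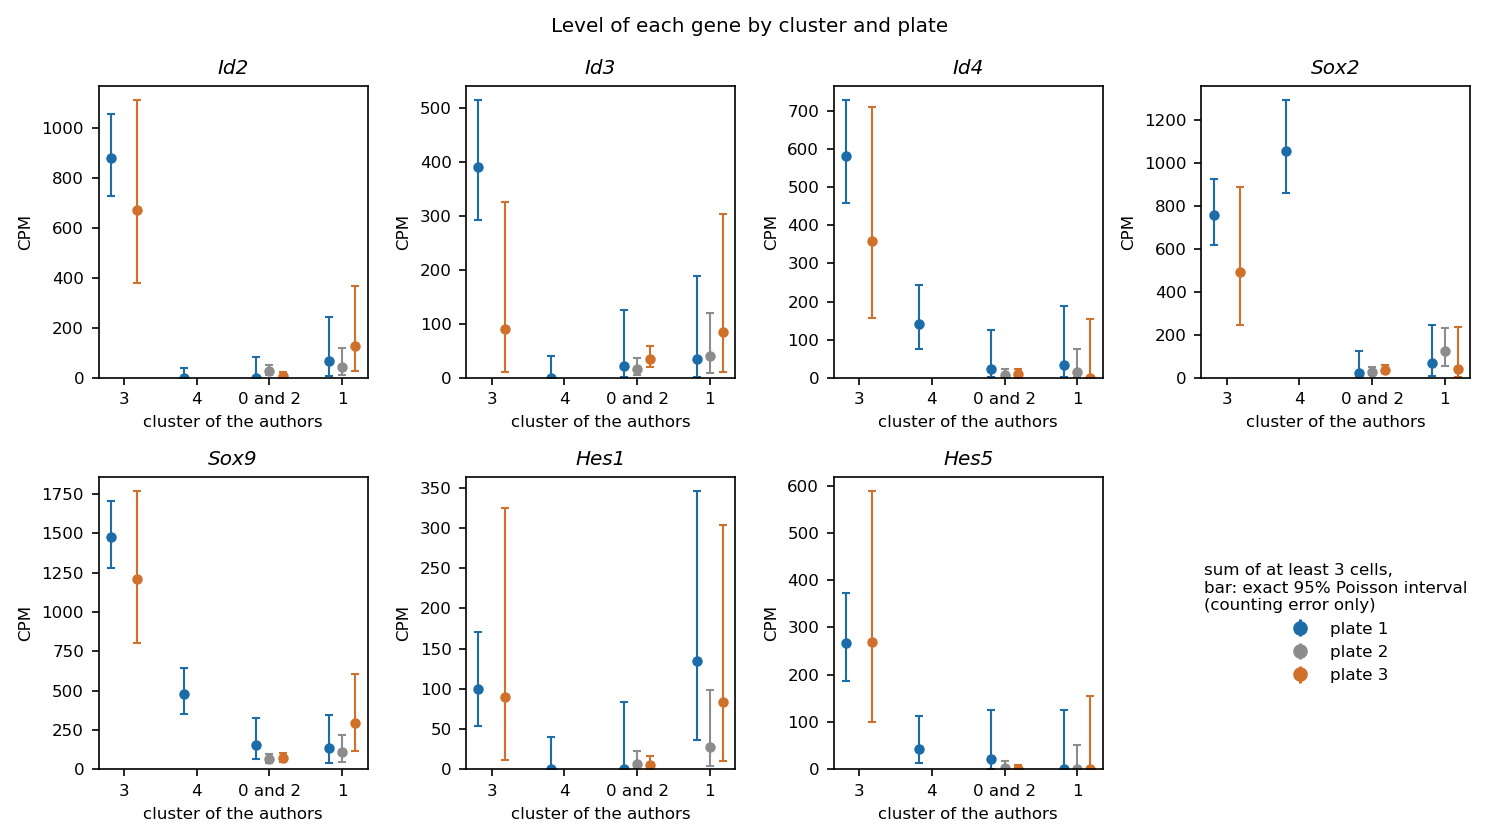
Level of each gene (y axis, CPM, linear and starting at 0) by cluster (x axis), with a point per plate and bars for the exact 95% Poisson interval of the count. In the Id2, Id3, Id4, Sox9 and Hes5 panels the cluster 3 points lie above the points of every other cluster, by little for Id3 on plate 3, while in the Sox2 panel the cluster 4 point at 1056 is the highest.

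Among the Id genes, Id2 measured 880 CPM in cluster 3 on plate 1 and 673 on plate 3. In clusters 0 and 2 it measured 0, 24.4 and 6.94 on plates 1, 2 and 3, and in cluster 1 it measured 67.4, 40.7 and 126. Cluster 3 stood above both on each usable plate. Clusters 0 and 2 had no identifier on plate 1. With that 0 set to 3 counts, the ratio to them was 13.2 there (exact lower limit 10.5). On plate 3 it was 97.0 (interval 27.3 to 521). Against cluster 1 the ratios were 13.1 on plate 1 and 5.35 on plate 3. In cluster 4, Id2 was at 0 of 92079 transcripts on plate 1, against 115 identifiers in cluster 3 of the same plate. With that 0 set to 3 counts over the sum, Id2 was 27.0-fold lower, and the exact interval puts it at least 21.5-fold lower. The lone cluster 4 cell of plate 2 had 1 Id2 identifier among 8726 transcripts.

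Id4 was also highest in cluster 3, and in cluster 4 it lay below cluster 3. It measured 581 and 359 CPM in cluster 3 on plates 1 and 3. It measured 22.2, 6.11 and 9.25 in clusters 0 and 2 on plates 1, 2 and 3, and 33.7, 13.6 and 0 in cluster 1. The ratio of cluster 3 to clusters 0 and 2 was 26.2 on plate 1 (interval 4.52 to 1039) and 38.8 on plate 3 (interval 10.4 to 175). In cluster 4 of plate 1 it measured 141, a ratio of 0.243 to cluster 3 (interval 0.124 to 0.442). A single cell held 10 of those 13 identifiers. Without that cell, chosen after the values were seen, the log2 ratio moved from -2.04 to -3.76.

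Id3 was uneven between plates and cells. It measured 390 CPM in cluster 3 on plate 1 but 89.7 on plate 3, the latter from 2 identifiers. It measured 22.2, 15.3 and 34.7 in clusters 0 and 2, and 33.7, 40.7 and 83.9 in cluster 1. The ratio of cluster 3 to clusters 0 and 2 was 17.6 on plate 1 (interval 2.99 to 701). On plate 3 it was 2.58, and the interval of 0.286 to 11.1 spans 1. Of 53 identifiers in cluster 3, 32 were in 3 cells, which had 13, 11 and 8. These cells held 60.4% of cluster 3's Id3 but 14.5% of all its identifiers, while the top 3 cells for Id2 and Id4 held 31.1% and 31.5% of theirs. Id3 is also a gene of blood vessel cells, and the 3 cells held 2 of the 38 identifiers of endothelial or mural markers found in cluster 3. No Id3 identifier was found in any of the 6 cells of cluster 4. On plate 1, with this 0 set to 3 counts, Id3 was 11.98-fold lower than in cluster 3 (exact interval: at least 9.35-fold).

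Id1, the remaining member of the family and not among the 7, was sparse, with 11 identifiers in 6 cells of cluster 3 and 6 identifiers in 3 cells of cluster 4. The near absence seen for Id2 and Id3 in cluster 4 was not seen for Id1, at 53.5 CPM in cluster 3 and 65.2 in cluster 4 on plate 1.

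Sox2 was the exception among the 7, as high in cluster 4 as in cluster 3 or higher. It measured 758 and 493 CPM in cluster 3 on plates 1 and 3 and 1056 in cluster 4 on plate 1. The ratio of cluster 4 to cluster 3 on plate 1 was 1.39 (interval 1.04 to 1.87), a log2 difference of 0.48 that fell to 0.19 with TMM scaling. It measured 22.2, 24.4 and 37.0 in clusters 0 and 2, and 67.4, 122 and 41.9 in cluster 1. The ratio of cluster 3 to clusters 0 and 2 was 34.1 on plate 1 (interval 5.93 to 1349) and 13.3 on plate 3 (interval 5.58 to 30.5). All 6 cells of cluster 4 carried Sox2, and the 5 on plate 1 had 18, 20, 8, 33 and 18 identifiers. On plate 2 the cell of cluster 4 had 2 and the cell of cluster 3 had 0. Sox2 lies inside Sox2ot, a long noncoding gene on the same strand. Sox2ot had a different distribution, with 409 of its 444 identifiers in clusters 0 and 2, 21 in cluster 3 and 9 in cluster 4.

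Sox9 was found widely, with its peak in cluster 3. It measured 1478 and 1212 CPM there on plates 1 and 3 and 478 in cluster 4 on plate 1, a ratio of 0.324 to cluster 3 (interval 0.229 to 0.453). It measured 156, 61.1 and 69.4 in clusters 0 and 2, and 135, 109 and 294 in cluster 1. The ratio of cluster 3 to clusters 0 and 2 was 9.50 on plate 1 and 17.5 on plate 3, and that to cluster 1 was 10.97 and 4.13. All 6 cells of cluster 4 carried Sox9, with 2 to 16 identifiers each.

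Of the Notch targets, Hes5 was found mostly in cluster 3, with 42 of its 48 identifiers there. It measured 268 and 269 CPM in cluster 3 on plates 1 and 3. It measured 22.2, 3.06 and 0 in clusters 0 and 2, from 2 identifiers in all, and was found in 0 of 36 cells of cluster 1, where the exact binomial limit is 9.74% of cells with an identifier. The ratio of cluster 3 to clusters 0 and 2 was 12.1 on plate 1 (interval 2.01 to 485). On plate 3, with the 0 of clusters 0 and 2 set to 3 counts, it was 38.8 (exact lower limit 22.8). In cluster 4 of plate 1 it measured 43.5, a ratio of 0.162 to cluster 3 (interval 0.0421 to 0.456), and all 4 identifiers came from 1 cell. Gm20421 overlaps Hes5 on the opposite strand, and the sources used here do not say whether counting used strand.

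Hes1 was sparse, with 27 identifiers in the whole data set. It measured 99.4 and 89.7 CPM in cluster 3 on plates 1 and 3. In cluster 1 it measured 135, 27.2 and 83.9, and in clusters 0 and 2 it measured 0, 6.11 and 4.63. The ranges of cluster 3 and cluster 1 overlap, and the ratios of 0.738 on plate 1 (interval 0.228 to 3.11) and 1.07 on plate 3 (interval 0.0778 to 14.8) leave the order undetermined. Cluster 4 had no Hes1 identifier in 6 cells. On plate 1, with this 0 set to 3 counts, Hes1 was 3.05-fold lower than in cluster 3 (exact interval: at least 2.14-fold).

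**Figure D2:**
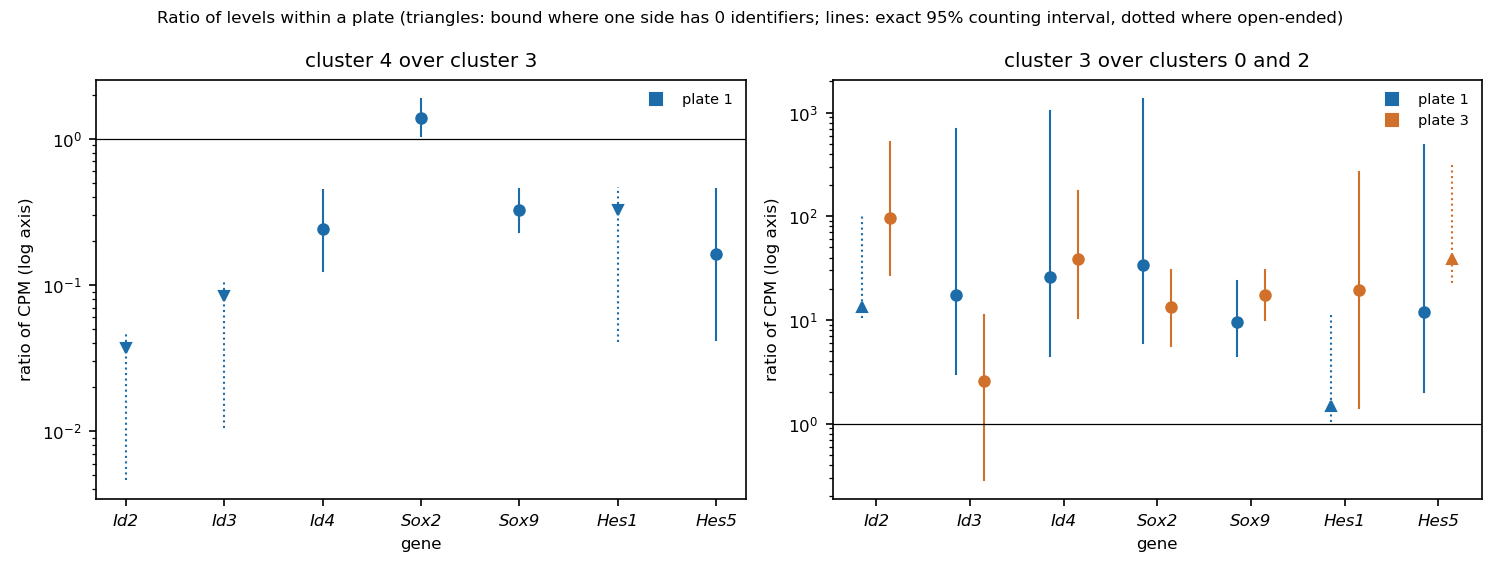
Ratio of levels within a plate (y axis, log scale) for each gene (x axis). Cluster 4 over cluster 3 on plate 1 is at left and cluster 3 over clusters 0 and 2 on plates 1 and 3 at right. Lines are exact 95% counting intervals. Triangles are values where a side had no identifier and its 0 was set to 3 counts, with dotted lines that end arbitrarily on the open side. At left only Sox2, at 1.39, is above 1, and at right all points are above 1.

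Counted together, 5 of the 7 members were at least 4-fold higher in cluster 3 than in clusters 0 and 2 on both usable plates (Id2, Id4, Sox2, Sox9 and Hes5). Among 7359 genes with at least 10 transcripts in the sums compared, 3.03% did so. Not all of these could reach 4-fold, because a 0 was set to 3 counts. Hes1, for example, was bounded at 1.49 on plate 1. On that plate clusters 0 and 2 had 4 cells, with 0 or 1 identifier of Id2, Id4, Sox2 and Hes5. The interval for Hes5 there, 2.01 to 485, reaches below 4. Against cluster 1, 3 of 7 passed (Id2, Sox2 and Sox9), where 2.58% of 4188 genes did. Their intervals start at 3.54, 3.04 and 4.22 on plate 1 and at 1.52, 1.72 and 1.76 on plate 3. On plate 3 cluster 1 had 1 Sox2 identifier. Id4 missed the count against cluster 1 because a 0 there bounds its ratio at only 2.85 on plate 3. Hes5 had a 0 in cluster 1 on both plates, which bounds its ratio at 2.65 on plate 1 and 2.14 on plate 3. The members' median log2 difference was 4.41 over clusters 0 and 2 and 2.75 over cluster 1, against medians of 0 over all genes. A gene absent from both sides on a plate was given a log2 difference of 0 there, which enters these medians. TMM scaling moved the all-gene median against cluster 1 to 0.27 and left the count at 3. Going from cluster 3 to cluster 4 on plate 1, 4 members were at least 4-fold lower (Id2, Id3, Id4 and Hes5), where 14.4% of 4641 genes were. None was 4-fold higher, where 17.4% of genes were. The members' median log2 difference was -2.04 against 0.22 for all genes, which TMM scaling moved to -0.07 while the count of members stayed at 4. The limit of 10 transcripts was taken over both sides together. Id2, Id3, Hes1 and Hes5 had 0, 0, 0 and 4 identifiers in cluster 4, so they passed it only through cluster 3. The same held for Id2, Id4, Hes1 and Hes5 against clusters 0 and 2, and for all members but Sox9 against cluster 1. These counts and medians are a description and no test. Against clusters 0 and 2 on plate 1, cluster 4 had 3 members with enough transcripts to be counted. Id4 and Sox2 were at least 4-fold higher, where 19.1% of 2967 genes were. Both rest on 1 identifier in clusters 0 and 2, and the interval for Id4 spans 1.

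Detection was counted per cell, over the plates together. In the 30 cells of cluster 3, Id2 was found in 27, Id3 in 15, Id4 in 21, Sox2 in 25, Sox9 in 27, Hes1 in 9 and Hes5 in 17. In the 6 cells of cluster 4 the counts were 1, 0, 5, 6, 6, 0 and 1. For a gene found in none of 6 cells, the exact binomial limit is 45.9% of cells with an identifier. These limits are on cells with an identifier, not on cells that express the gene. In the 36 cells of cluster 1 the counts were 5, 5, 2, 8, 14, 4 and 0. In the 77 cells of clusters 0 and 2 they were 11, 16, 7, 18, 37, 4 and 2.

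Depth separates these groups, so each cell was also thinned to 1000 identifiers, a number that every cell reached. The expected share of cells with Id2 was then 53.9% in cluster 3, 1.92% in cluster 4, 1.09% in clusters 0 and 2 and 5.14% in cluster 1. The unthinned shares were 90.0%, 16.7%, 14.3% and 13.9%. Sox2 was expected in 46.9% of cluster 3 cells and 56.5% of cluster 4 cells, against 2.90% in clusters 0 and 2 and 9.73% in cluster 1. Id4 was expected in 38.1% and 14.3% of cells of clusters 3 and 4, and Sox9 in 66.1% and 33.9%. Hes5 was expected in 19.4% and 3.69%, and Id3 in 21.8% and 0%. Hes1 was expected in 11.2% of cells of cluster 3, 0% of cluster 4 and 7.42% of cluster 1. All 4 cells of cluster 1 with Hes1 had at least 2 identifiers of it, against 4 of 9 in cluster 3.

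**Figure D3:**
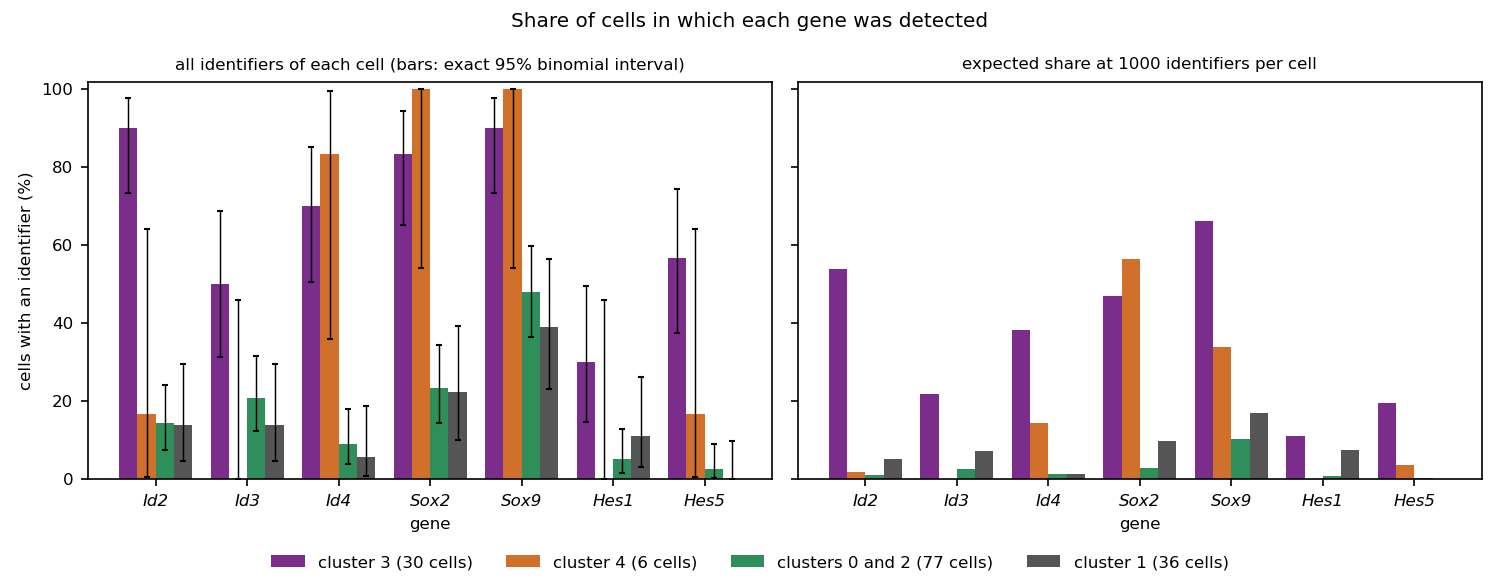
Share of cells with at least 1 identifier (y axis, percent) for each gene (x axis) in 4 groups of cells, from all identifiers at left with exact 95% binomial intervals and as the expected share at 1000 identifiers per cell at right. After thinning, Sox2 at 56.5% is the only gene for which the cluster 4 bar is above the cluster 3 bar.

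Free RNA in a well can give a few identifiers in cells that do not express a gene. In clusters 0 and 2, the members' levels had a median of 3.82% of their cluster 3 level on plate 1 and 5.16% on plate 3. The stem-cell or astrocyte markers, measured in the same way, had medians of 3.56% over 13 markers on plate 1 and 2.03% over 12 on plate 3. Gfap was left out on plate 3, where cluster 3 had none. In cluster 1 the members' medians were 8.63% and 18.7%, and the markers' were 3.35% and 6.66%. The highest values in cluster 1 were 136% and 93.5% for members and 220% and 93.5% for markers. In clusters 0 and 2 they were 10.5% and 38.7% for members and 218% and 47.9% for markers. The part that free RNA or mixed wells play in the low levels of clusters 0, 1 and 2 was not tested.

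Counts varied widely between cells. Within cluster 3, counts per cell ran from 0 to 23 for Id2 with a median of 3.5, from 0 to 31 for Sox9 with a median of 5, and from 0 to 12 for Sox2 with a median of 3. They ran from 0 to 10 for Id4, 0 to 13 for Id3, 0 to 8 for Hes5 and 0 to 4 for Hes1. The deepest cluster 3 cell, with 12607 transcripts, carried all 7 genes, among them 23 Id2 and 23 Sox9 identifiers. Each of the 5 cluster 4 cells on plate 1 had more transcripts than that cell, between 15797 and 22080, and none had an identifier of Id2, Id3 or Hes1. Only 3 cells of cluster 3 had all 7 genes, and 1 cell had a single member, Id4. The lone cluster 3 cell of plate 2 had 2 identifiers of Id2, 5 of Id4, 3 of Sox9 and 1 of Hes5, and none of the other members.

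**Figure D4:**
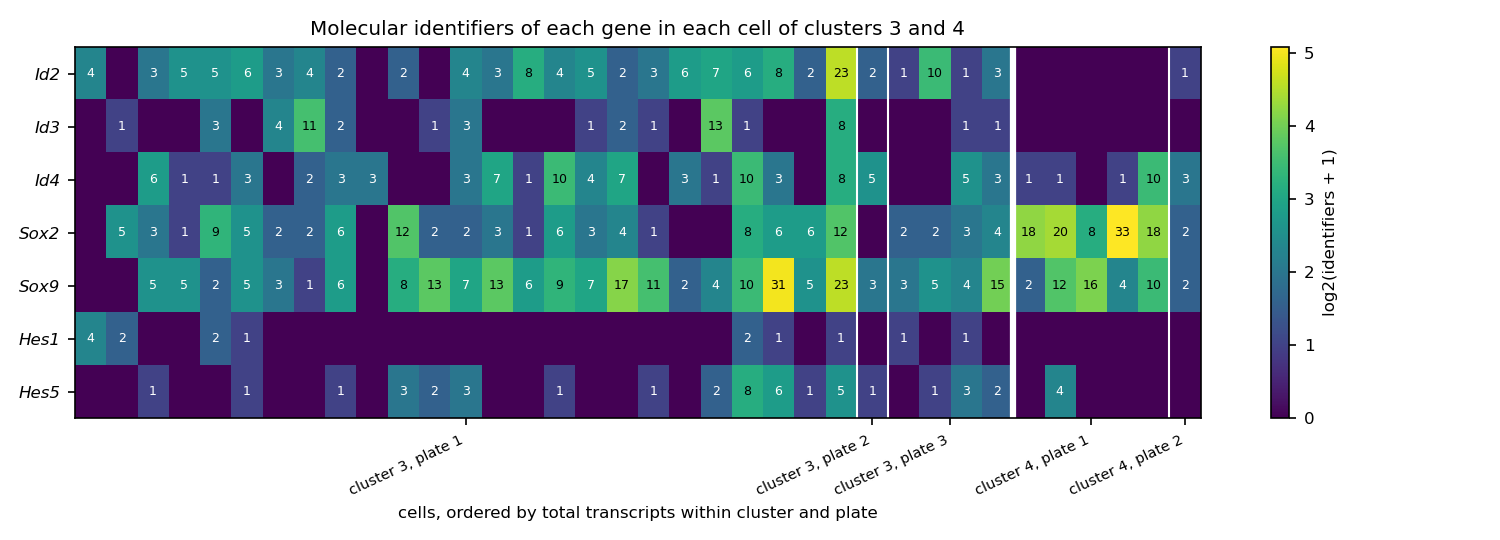
Molecular identifiers of each gene (rows) in each of the 30 cells of cluster 3 and 6 cells of cluster 4 (columns, ordered by depth within cluster and plate), with colour for log2(identifiers + 1) and the count printed where it is above 0. The Id2 row is filled in 27 of 30 cells left of the thick line and in 1 of 6 cells right of it, while the Sox2 row is filled in all 6 cells at right.

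Inside cluster 3, counts per cell were low, with medians from 0 for Hes1 to 5 for Sox9. Correlations between members therefore cannot show whether subgroups of cells exist in cluster 3. Over its 30 cells, Spearman correlations between pairs of members, on CPM, ran from -0.28 for Sox9 and Hes1 to 0.41 for Sox9 and Hes5. Cells share depth and plate, and these values are a description. Id2 and Sox9 were found together in 26 cells, and all 17 cells with Hes5 also had Sox9. Hes1 and Hes5 were found together in 5 cells, Hes1 alone of the pair in 4, Hes5 alone in 12 and neither in 9. The authors' phase calls put 27 cells of cluster 3 in G0, 2 in G1 and 1 in G2M, and those of cluster 4 in S (2) and G2M (4). The 3 cells of cluster 3 called outside G0 all had Id2, Sox2 and Sox9, and none had Id3. Phase calls rest on expression and show no division on their own.

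Across the 11 sums of cluster and plate with at least 3 cells, Id4 and Hes5 had the closest levels of any pair of members, with Pearson's r of 0.92 on log2(CPM + 10). Id4 and Sox9 had 0.88, Id4 and Sox2 0.88, and Sox9 and Hes5 0.89. Id2 and Hes1 had 0.85 and Id2 and Id3 0.79. Sox2 was least like Id3, at 0.24. The sums share plates and depth, so the values describe likeness only. Among 4289 genes with enough transcripts, those most like Id2 were Cyp2d22, Cxcl14 and Kidins220 (r from 0.92 to 0.93), and those most like Id3 were Sdf2, Eif2ak2 and Cadm1 (0.88 to 0.90). Id4 was most like Mfge8, Ndrg2 and Kcnk1 (each 0.94) and Sox2 most like Ptprz1, Myo10 and Tnfrsf19 (0.94 to 0.95). Sox9 was most like Cpe, Gja1, which encodes the astrocyte gap junction protein connexin 43, and Slc1a2, a glutamate transporter (0.94 to 0.96). Hes1 was most like Pbxip1, Tmem176b and Snrnp70 (0.93 to 0.97), and Hes5 most like Ednrb, the endothelin B receptor, Prdx6 and Atp1b1 (each 0.96).

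The wider pathways were read from 76 genes in 7 lists, of which 74 were in the table. In cluster 3 against clusters 0 and 2, 42 had enough transcripts. Of these, 4 were at least 4-fold higher on both plates (Maml2, Sox1, Nr2e1 and Hopx) and 2 lower (Olig1 and Sox10, both oligodendrocyte-lineage factors), where 3.03% of all genes counted were higher and 2.05% lower. Against cluster 1, 3 of 34 were higher (Nfia, Hopx and Cdkn1b), where 2.58% of all genes counted were. In cluster 4 against cluster 3 on plate 1, 11 of 37 were higher and 7 lower, where 17.4% and 14.4% of all genes counted were, and the median log2 difference was 0.67 against 0.22 over all genes.

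Genes of the Notch pathway went both ways. For this and the following lists, 17.4% of all genes counted were at least 4-fold higher in cluster 4 and 14.4% lower. With 3 to 7 genes counted per list, these counts are not read as results about a list. Jag1 measured 30.6 CPM in cluster 3 and 228 in cluster 4 on plate 1, and it and Dll1 were the 2 of 5 ligands and receptors at least 4-fold higher. Dner, a Notch ligand-like membrane protein, was the 1 of 5 that was lower, at 99.4 and 10.9. The receptors Notch1 and Notch2 measured 367 and 153 in cluster 3 and 359 and 65.2 in cluster 4. Of 5 effectors and modulators, Hes6, a Hes-family gene that counters Hes1 in other settings, was higher, at 15.3 and 511. Maml2 and Lfng were lower, and Lfng, a glycosyltransferase that tunes Notch receptors, measured 130 and 10.9. Rbpj, the DNA-binding partner of Notch, measured 76.5 and 185, and Nrarp, a feedback inhibitor, 107 and 65.2.

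Among BMP genes 1 of 4 was lower in cluster 4. Bmpr1b measured 145 CPM in cluster 3 and 21.7 in cluster 4 on plate 1, from 2 identifiers in the latter. The receptors Bmpr1a and Bmpr2 measured 206 and 38.2 in cluster 3 and 97.8 and 141 in cluster 4. None of 3 genes counted among SMADs and Id1 passed either way. Smad4 and Smad5, which carry BMP signals to the nucleus, measured 45.9 and 30.6 in cluster 3 and 43.4 and 86.9 in cluster 4.

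Several helix-loop-helix genes were higher in cluster 4. Of 7 helix-loop-helix partners and proneural factors counted, Tcf3, Tcf12 and Olig2 were among those at least 4-fold higher, and none was lower. Tcf3, an E protein, measured 22.9 CPM in cluster 3 and 130 in cluster 4 on plate 1. Tcf4, another E protein, measured 689 and 849, and Huwe1, a ubiquitin ligase, measured 115 and 283, so neither reached 4-fold.

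Other Sox genes were divided. Sox4 and Sox11 were higher in cluster 4 and Sox5 and Sox21 lower, of 6 counted. Sox11, a factor of newborn neurons, measured 138 CPM in cluster 3 and 751 in cluster 4 on plate 1, and Sox21 measured 153 and 32.6. Sox1, a close relative of Sox2, measured 130 and 457. Of 7 other quiescence regulators, Nfix and Gas1 were higher in cluster 4 and Hopx lower. Hopx measured 651 and 10.9, and Gas1 measured 207 and 992. Nfia and Nfib measured 528 and 421 in cluster 3 and 838 and 1373 in cluster 4.

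Autofluorescence is the measure that did not enter the clustering, and it was compared with a test. Cells were split at the median of their plate, and the sums of the 3 plates were compared with edgeR's quasi-likelihood test with plate as a block. The p-values rest on how the difference between high and low cells varied over 3 plates, which the series design ties to 3 experiment days. No member that could be tested passed. With all cells, Id2, Sox2 and Sox9 had enough transcripts to be tested, and 0 of 3 passed an adjusted p of 0.05, where 4.03% of 3723 genes did, 3.89% being higher in high cells. At an unadjusted p below 0.05 the count was 1, and DESeq2 called 0 of 6.

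Id2 came nearest. It measured 244, 27.8 and 13.1 CPM in low cells of plates 1, 2 and 3 and 600, 40.5 and 72.2 in high cells, so it was higher in 3 of 3 plates. Its log2 difference was 1.41 (SE 0.44, edgeR adjusted p = 0.0899). Sox9 measured 697, 69.5 and 87.3 in low cells and 1025, 91.0 and 176 in high cells, also higher on 3 of 3 plates, with a log2 difference of 0.69 (SE 0.36, edgeR adjusted p = 0.525). Sox2 measured 825, 37.0 and 56.8 in low cells and 456, 55.6 and 60.1 in high cells, higher on 2 plates and lower on plate 1, with a log2 difference of -0.21 (SE 0.41, edgeR adjusted p = 0.925).

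The makeup of the classes moved with these values. On plate 1, 5 cluster 4 cells gave 53.4% of the transcripts of the low class and none of the high class, and cluster 3 cells gave 29.5% and 63.9%. Cluster 1 gave 0.939%, 4.39% and 0% of the low classes on plates 1, 2 and 3 and 22.4%, 32.5% and 9.56% of the high classes. Median autofluorescence was 1826 units in cluster 3, 1184 in cluster 4, 1119 in clusters 0 and 2 and 4896 in cluster 1.

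Splitting at the median of each plate and cluster brought the classes closer in makeup and dropped the 3 cells that were alone in their cluster on a plate. On plate 1, cluster 4 then gave 42.5% of the transcripts of the low class and 24.6% of the high class, and cluster 3 gave 38.0% and 55.9%. In this split Sox2 and Sox9 were tested and 0 of 2 passed, where 0.0879% of 3412 genes did, and none had an unadjusted p below 0.05. The log2 differences were 0.16 for Sox2 (SE 0.33, edgeR adjusted p = 0.973) and 0.01 for Sox9 (SE 0.30, edgeR adjusted p = 1.00). With cluster 1 left out, 0 of 2 passed again, where 0.378% of 2913 genes did, with log2 differences of 0.16 for Sox2 (SE 0.44, edgeR adjusted p = 0.974) and 0.44 for Sox9 (SE 0.43, edgeR adjusted p = 0.919). DESeq2 called none of the members in either comparison.

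Inside cluster 3 alone the split gave values without a test, since most of its cells sat on plate 1. On that plate 12 high cells measured 914 CPM of Id2 and 13 low cells measured 827, a ratio of 1.10 (interval 0.747 to 1.66). Id3 measured 501 and 217, a ratio of 2.31 (interval 1.17 to 5.00), and Hes5 measured 338 and 157, a ratio of 2.14. Id4, Sox2, Sox9 and Hes1 had ratios of 1.22, 0.762, 1.14 and 0.397. On plate 3, with 2 cells a side, the ratio was 0.643 for Id3 and 0.643 for Hes5, the opposite direction. The intervals treat identifiers as independent, and 3 cells held most of the Id3.

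**Figure D5:**
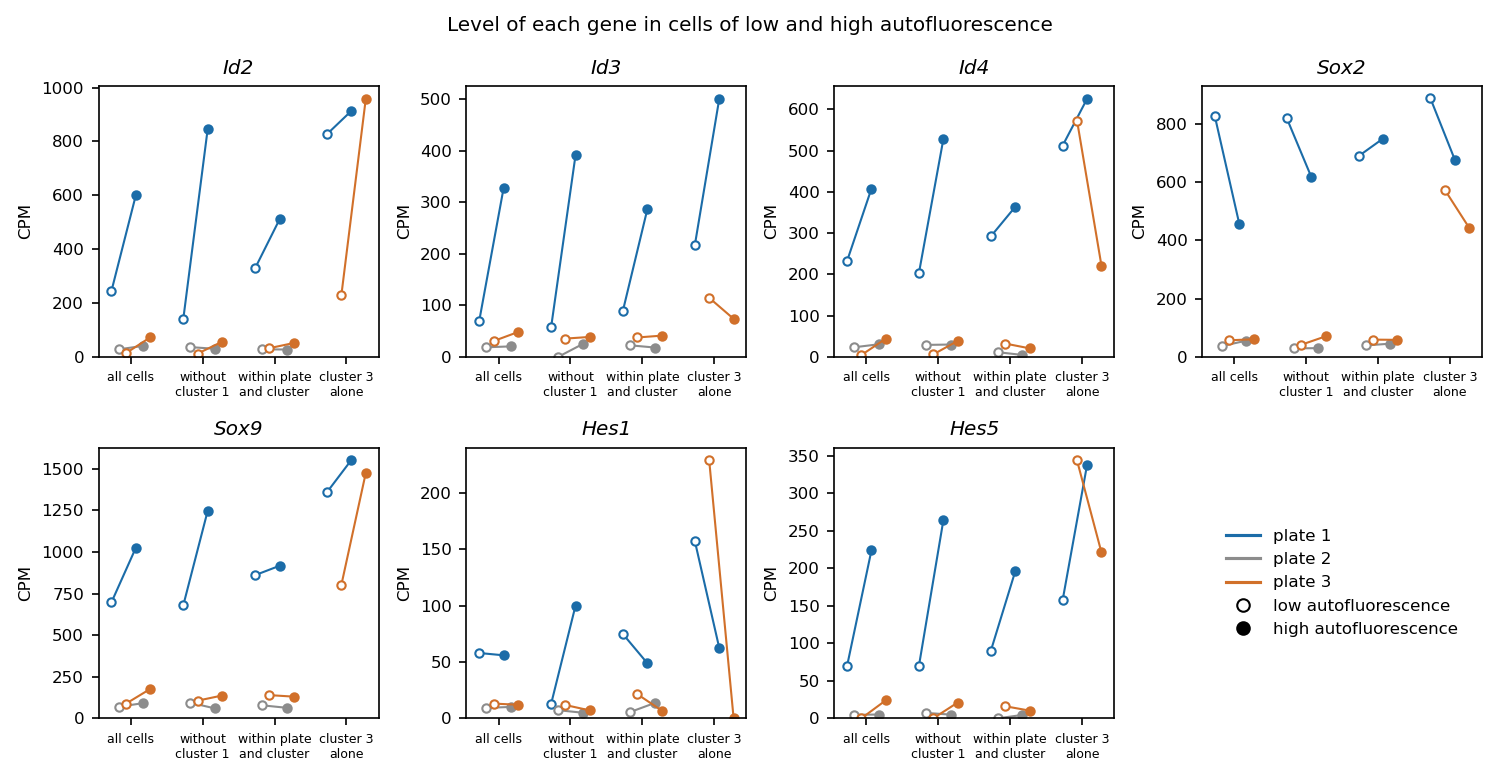
Level of each gene (y axis, CPM) in cells of low (open) and high (filled) autofluorescence, joined per plate, for 4 ways of choosing the cells (x axis). Id2 rises from open to filled on all 3 plates with all cells, and the lines for Sox9 within plate and cluster are close to flat.

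Of the 76 pathway genes, 18 could be tested with all cells and 1 passed, Hopx, where 4.03% of 3723 genes did. A count of 1 is not read as a result about the lists. Hopx was higher in high cells, with a log2 difference of 1.79 (SE 0.46, edgeR adjusted p = 0.0258). The adjusted p was 0.583 without plate 1, 0.380 without plate 2 and 0.936 without the plate block by edgeR, and 0.280 by DESeq2. Within plate and cluster 18 were tested and none passed, where 0.0879% of 3412 genes did. Hopx was at a log2 difference of 1.15 there (SE 0.43, edgeR adjusted p = 0.407). Without cluster 1, 15 were tested and none passed, where 0.378% of 2913 genes did, but Hopx was not among those 15. With no filter on low counts it was tested there and passed, with a log2 difference of 2.01 (SE 0.55, edgeR adjusted p = 0.0447). Hopx is a gene of quiescent stem cells and astrocytes and was itself high in cluster 3.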

How the data were processed

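The expression table holds the authors' estimated counts per gene and cell, deposited after a correction of identifier numbers. Undoing this correction for collisions, with 4096 possible identifiers, gave whole numbers within 1e-06 for 100% of the 349688 values above 0. Autofluorescence is an intensity per cell in arbitrary units, as deposited. Per the submitters' processing notes, tools were R 4.2.0, Seurat 4.1.1 and BWA 0.7.15 and builds mm10 and hg19, all without a role. The sources used here give neither annotation nor strand setting. The authors' cluster numbers and phase calls were used unchanged. The per-cell table has 13 further columns that were not used, and neither were the unfiltered table or the barcode list. Library names were matched to plates by their final digit. Of the well names, 36 occur on 1 plate, 37 on 2 and 13 on 3. No doublet caller was run. Cells had 1208 to 37442 transcripts.

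Transcripts were summed per plate and cluster. A fold was called at 4 on every plate with sums of at least 3 cells on both sides, over genes with at least 10 transcripts. A 0 was set to 3 counts over the sum. For likeness, each member was set against other genes with at least 50 transcripts in all cells. Hes1 and Hes5, with 27 and 48, were kept as members. For autofluorescence, sums were rounded to whole counts and fitted with edgeR 4.0.16 (R 4.3.3), with a plate block, TMM scaling, the tool's low-count filter and p-values adjusted over all genes by Benjamini-Hochberg, and the fit was tested on simulated data. The block follows the series design, which ties each plate to 1 experiment day. Alternatives were RLE scaling, no filter, DESeq2 1.42.0, no block, each plate left out, other minima, a fold of 2, means over cells and recovered identifiers.

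All 7 members are named. Of the pathway lists, genes called by autofluorescence and, per list, up to 2 with the highest level in cluster 3 and in cluster 4 are given with values, and those past 4-fold are named where a count is small. Some items that these rules would name are not reported here. The members, lists and rules were chosen with earlier results of these data known. Sequences are from RefSeq on GRCm38.p6, and positions from GENCODE vM21 on GRCm38, the build that mm10 denotes. Python 3.11.15 with numpy 2.4.6, pandas 2.3.3, scipy 1.17.1 and matplotlib 3.10.9 was used.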

Additional observations from a re-analysis of the deposited data

How the results depend on the processing

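The count of members higher in cluster 3 than in clusters 0 and 2 was 4, 5 and 6 without plates 1, 2 and 3. The shares of all genes counted were 8.07%, 3.03% and 12.5%. Against cluster 1 the count was 3, 3 and 5, with shares of 17.9%, 2.58% and 8.83%. A fold of 2 also gave 5 against cluster 1, where 7.35% of all genes counted were higher. RLE scaling or means over cells took Sox9 out of the 4-fold count against cluster 1, where 2.15% and 2.55% of genes were higher. Sums of a single cell add plate 2, where cluster 3 had no Sox2. For cluster 4 against cluster 3 they left 1 member, Id2, of 4. The share of all genes called, in either direction, fell from 31.8% to 1.5%. This alternative was chosen after seeing the data. A minimum of 10 cells gave no value for either cluster 3 comparison.

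By autofluorescence, the count of members called stayed at 0 in the 3 comparisons with each plate left out, and Id2 was the 1 called without the filter on low counts and without cluster 1 (edgeR adjusted p = 0.0326). Signs of log2 differences reversed with plates left out: those of Sox2 with all cells ran from -0.42 to 0.32, of Sox9 within plate and cluster from -0.18 to 0.083, and outside cluster 1 from -0.072 to 0.24 for Sox2 and from -0.017 to 0.81 for Sox9. With no replicate block Sox2 outside cluster 1 was at -0.14. With no replicate block 0 members were called, and 0 genes against 150 with all cells, 3 within plate and cluster and 11 outside cluster 1. With all cells, 307 genes were called with no filter, 98 by DESeq2 and 39 without plate 2. Within plate and cluster, RLE scaling called 20, DESeq2 0, and leaving out plates 0 to 23. Outside cluster 1, RLE scaling called 7, no filter 74, DESeq2 19, and leaving out plates 0 to 7. The causes were not tested. The 6 cells of cluster 4, 5 of them on 1 plate, limit every comparison with it.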
